A study of Helianthus annuus with 142 samples.

Results

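Nuclear genes with very abundant transcripts were examined in leaves of sunflower, Helianthus annuus, with and without water deficit. A gene was included when its identifier placed it on a nuclear chromosome, the mean of its control and stress levels reached 1000 CPM (its counts scaled to a fixed library total), and its log2 ratio of stress to control lay between -3 and 3. The members were thus chosen by their measured level and their average drought ratio. This rule found 91 of the 58033 genes that carry no ribosomal RNA note, out of 96 nuclear genes at 1000 CPM or more. Leaf RNA came from 24 genotypes, namely the lines SF009, SF092, SF109, SF193, SF279, SF317, SF326 and SF342 and the 16 hybrids that join each of the first 4 with each of the last 4. Every genotype was grown well watered (control, with a fraction of transpirable soil water, FTSW, of 1) and with irrigation withheld (stress, harvested at an FTSW of 0.1). All plants were raised the same way in pots thinned to a single plant, but no label says outright that each library is 1 plant. If they are not separate plants, p-values measure only the spread between libraries. Each of the 48 groups had 3 libraries except control SF342, which had 1, giving 70 control and 72 stress libraries, 96 of them from hybrids and 46 from lines. The labels do not say which parent of a hybrid bore the seed, and their protocol text also speaks of retaining plants of a genotype called XRQ, so it may have been written in part for another study.

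In a green leaf, a small number of nuclear genes usually supplies a large part of the messenger RNA. In plants these commonly include genes for the small subunit of Rubisco, which fixes carbon dioxide, for the chlorophyll-binding proteins of the light-harvesting antennae, and for other proteins of photosynthesis, photorespiration and translation. Transcripts of photosynthesis genes often fall when leaves dry, while those of protective proteins rise. None of the identifiers in the count table matched the annotation used here, so which of the 91 genes belong to such families was not analysed, the leaf could not be checked by marker genes, and genes are named by identifier only.

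Library totals ran from 2791984 to 13765563 counts, with a median of 6921971. The mean total was 7347700 in control and 7444700 in stress libraries. Genes of the mitochondrial genome took 1.13% ± 0.41 of the counts in control and 1.32% ± 0.19 in stress libraries (SD). Their part in the levels below was not tested. SF109 control replicate 2, the library with the fewest counts, stood apart at 4.06%, against a control median of 1.05%. It is part of the control means of SF109 below, and no result without it is given. On 2014 genes that are on in some genotypes and off in others, 137 of 142 libraries agreed best with the genotype on their label. The other 5, which agreed better with another genotype, were control replicate 2 and stress replicate 3 of SF009, control replicate 1 of SF009_SF279, and stress replicate 3 of SF092_SF317 and of SF326. The library labelled SF092_SF317 stress replicate 3 agreed at 51.9% of these genes with its label and at 97.7% with SF326. The converse held for stress replicate 3 of SF326, which agreed at 50.5% with its own genotype and at 94.6% with SF092_SF317. Margins were small in SF009: control replicate 2 agreed at 77.8% with its label and at 80.4% with SF009_SF326. Its stress replicate 3 agreed at 73.0% with its label and at 74.8% with SF193_SF326. Control replicate 1 of SF009_SF279 agreed at 65.6% with its label and at 80.9% with SF009. Genes on which the libraries of a genotype split evenly were left out of its percentage, so compared percentages can rest on different genes. The counts of genes passing each test and the share of counts held by all 91 genes are also given without these 5 libraries. In line SF009, libraries matched their label at only 73.0% (stress replicate 3) to 80.4% (stress replicate 2) of the 2014 genes. Among the other genotypes, the lowest match of a library not doubted was 88.5%, in SF109_SF279 stress replicate 1. SF009 values without the 5 libraries thus still rest on libraries with a low match to their label. The cause was not tested.

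The 91 genes fell into a short and a long class of gene models. In 17 of them the model spanned only 160 to 310 bp from start to end, and the remaining 74 spanned 501 to 23287 bp, with a median of 3091.5 bp. Models under 400 bp made up 18.7% of the 91 genes, against 3.12% of the 1186 nuclear genes at 100 to 1000 CPM and 2.24% of the 36989 genes with enough counts to be tested. The short spans were few in kind: 5 genes spanned 160 to 161 bp and 9 spanned 305 to 310 bp. The limit of 400 bp was set after the values were seen, so the classes are described and no test between them is given. All 5 genes with the highest mean level were short. Per kb of span, which includes any introns, levels ran from 3761 CPM in HanXRQChr04g0101561 to 99287 CPM in HanXRQChr11g0334531 among the short genes and reached at most 3205 CPM, in HanXRQChr05g0146621, among the long ones. Whether reads were shared between near-identical copies of a gene was not analysed.

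Just inside the abundance limit stood HanXRQChr03g0064801, with a mean of 1011 CPM, and just outside it HanXRQChr08g0216051, with 998 CPM. At the limits on the drought ratio, HanXRQChr11g0325331 was included at a log2 ratio of -2.94 and HanXRQChr11g0325011 left out at -3.07, while HanXRQChr10g0293251 was included at 2.9991 and HanXRQChr13g0419741 left out at 3.21. These values come from the choice itself and are given as a description.

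Per library, the 91 genes took 21.6% to 33.1% of the counts of control plants, with a median of 26.9%, and 17.3% to 35.6% under stress, with a median of 22.1%. The ranges overlapped, and the mean went from 27.2% ± 2.25 to 22.3% ± 3.02 (SD over 70 and 72 libraries). Within genotypes, the share was lower under stress in 24 of 24, most in SF092_SF342 (28.8% to 18.5%). The smallest difference, in SF009 (25.73% to 25.25%), rests on stress replicate 1 at 35.6%, and without that library SF009 went to 20.05% and the smallest difference was that of SF342 (24.6% to 23.9%). Without the 5 doubted libraries, which leaves that replicate and 1 other in stress SF009, the share was lower in 23 genotypes and SF009 went from 25.3% to 28.0%. The long genes held 14.1% to 22.0% of control counts and 4.67% to 18.6% of stress counts, and their mean share fell from 17.8% ± 1.96 to 11.0% ± 2.87, with a lower value in 24 of 24 genotypes, also without the doubted libraries. The short genes held 5.38% to 15.0% of control counts and 7.08% to 28.7% of stress counts, with means of 9.37% ± 1.79 and 11.3% ± 2.73, and 22 of 24 genotypes had the larger share under stress (23 without the 5 doubted libraries). A single library, SF009 stress replicate 1, stood far above the rest at 28.7%, and it was the library with the highest level for 12 of the 17 short genes. It is also absent from the table that the authors filtered. Without it, all 91 genes held 22.1% ± 2.59 of stress counts, and without the 5 doubted libraries 27.2% ± 2.28 of control and 22.3% ± 3.07 of stress counts. At the other end, SF092_SF342 stress replicate 2 had the lowest level for 47 of the 74 long genes. In bulk leaf tissue, fewer cells of a type and less RNA per cell cannot be told apart.

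**Figure D1:**
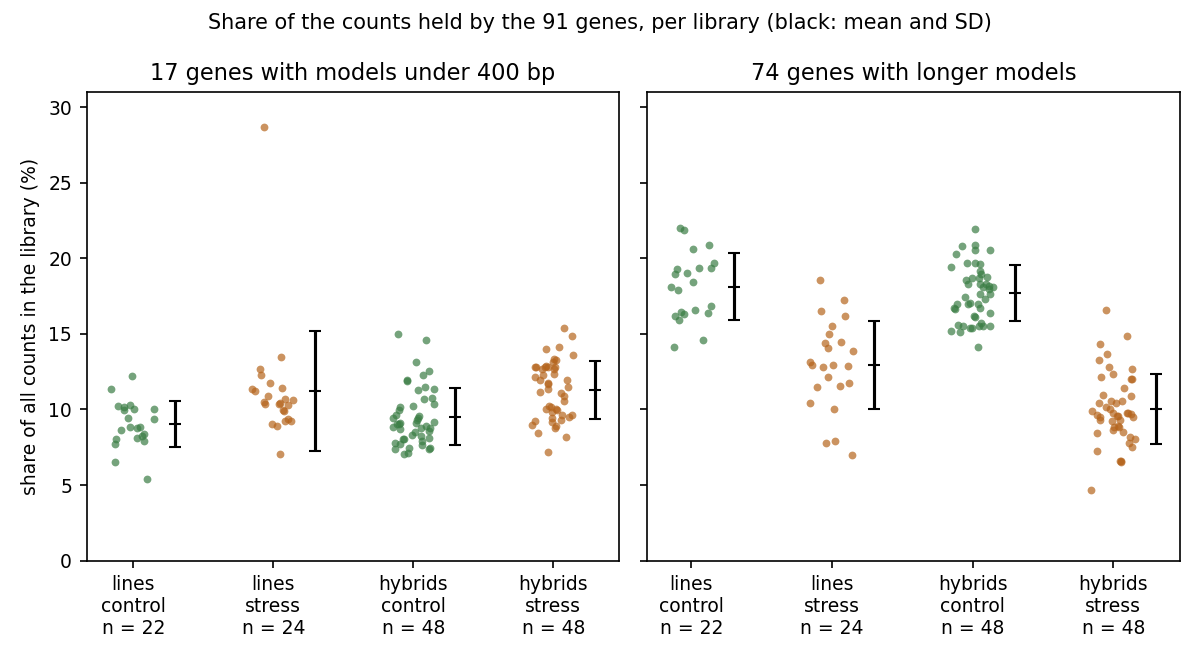
Share of all counts (%, vertical axis) in each library, for the 17 genes with models under 400 bp (left) and the 74 longer genes (right), by lines and hybrids with and without water deficit; points are libraries and black bars the mean and SD. The share of the long genes sits lower under stress, with a mean of 10.04% in hybrids and 12.9% in lines, and SF009 stress replicate 1 stands apart at 28.7% for the short genes.

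The 4 genes at the top, HanXRQChr14g0446051, HanXRQChr11g0334531, HanXRQChr14g0446171 and HanXRQChr14g0446531, alone took 5.74% ± 1.255 of control counts and 7.185% ± 1.82 of stress counts. HanXRQChr14g0446051 (chromosome 14, 127014605 to 127014913, minus strand, 309 bp) ranged from 1364 to 36180 CPM over control libraries, with a median of 15880, and from 1272 to 47720 CPM under stress, with a median of 22200. The groups overlapped almost wholly, and the genotype means averaged 16880 ± 8486 CPM in control and 22440 ± 8695 CPM in stress plants (SD, n = 24). Within genotypes, the mean was lower under stress only in SF109 (1895 and 1789 CPM), SF342 (31320 and 27060) and SF092_SF317 (28680 and 27990). The means of SF009, SF009_SF279, SF326 and SF092_SF317 include doubted libraries. HanXRQChr11g0334531 (chromosome 11, 66955945 to 66956105, minus strand, 161 bp) ran from 5958 to 29100 CPM in control, with a median of 13840, and from 8846 to 69310 CPM under stress, with a median of 15400. Its highest value was again that of SF009 stress replicate 1, while the other ranges lay close together. HanXRQChr14g0446171 (chromosome 14, 127169758 to 127170064, plus strand, 307 bp) had medians of 14670 CPM in control and 16080 CPM in stress libraries, and HanXRQChr14g0446531 (chromosome 14, 128311071 to 128311377, minus strand, 307 bp) had medians of 11100 and 15000 CPM. HanXRQChr17g0542081 (chromosome 17, 29057172 to 29057476, plus strand, 305 bp) followed at 5654 CPM in control and 7454 CPM under stress.

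Drought moved the short genes little. All 17 stayed within 2-fold, with log2 ratios of CPM from -0.33 to 0.47 and a median of 0.21, and 14 had a ratio above 1. This direction depends on the scale: after scaling by TMM (the trimmed mean of M-values, which removes the shift of the bulk of genes), only 7 of the 17 had a log2 change above 0, and the sign differed between the scalings for 7 short and 4 long genes. The median log2 change of all tested genes shifted from 0.02 with TMM to 0.22 when library totals alone were used. On the TMM scale HanXRQChr10g0293241, a short gene on chromosome 10, had a log2 change of 0.26 ± 0.07 (SE), against 0.47 in CPM, the largest of the 17 in CPM.

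**Figure D2:**
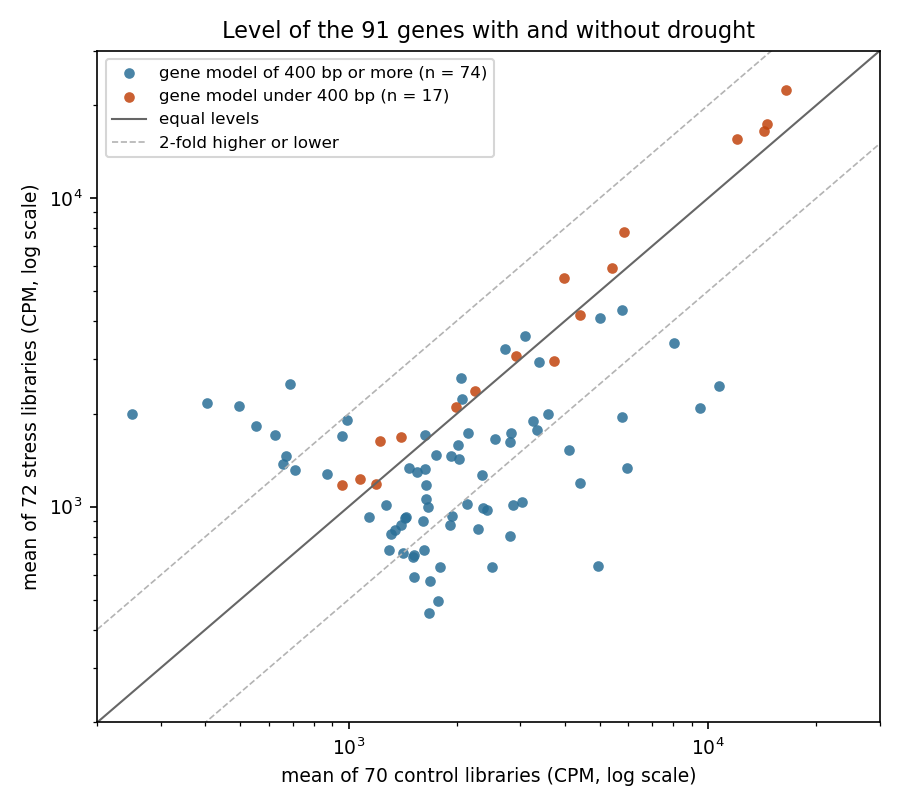
Mean CPM of each of the 91 genes over 70 control libraries (horizontal, log scale) and 72 stress libraries (vertical, log scale), with lines at equal levels and at 2-fold; orange points are the 17 genes with models under 400 bp and blue points the 74 longer genes. The orange points lie within 2-fold of equality, while 27 blue points lie below the lower and 8 above the upper dashed line.

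Levels ranged more widely over genotypes in the short genes than in the long ones. The range is the highest minus the lowest genotype mean, so it is not on the same measure as the average drought ratio. In control plants, the range over the 24 genotype means of log2 CPM had a median of 3.08 among the 17 short genes and 0.98 among the 74 long ones, and it passed 2 in 14 short and 5 long genes. Without the 5 doubted libraries the medians were 3.08 and 1.09, and 14 short and 7 long genes passed 2. The test of genotype differences, averaged over water supply, gave an adjusted p under 0.05 for 81 of the 91 genes, 17 of 17 short and 64 of 74 long (edgeR's quasi-likelihood test with Benjamini-Hochberg adjustment over 36989 genes). That is close to the background, since 85.6% of all genes and 88.2% of those at 100 to 1000 CPM passed. Without the 5 doubted libraries, 83 of the 91 passed.

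HanXRQChr16g0516601 (chromosome 16, 111608169 to 111608478, plus strand, 310 bp) had the widest range and was the only member below 1 CPM in the mean of a control genotype. Among control lines it averaged 2729 CPM ± 916 in SF009, 2055 ± 188 in SF326, 2053 ± 428 in SF193 and 1601 ± 477 in SF092 (SD, n = 3 each). It was at 123 CPM in the single SF342 library, and at 5.02 CPM ± 4.68 in SF109, 4.02 ± 2.64 in SF317 and 0.93 ± 0.96 in SF279. The mean of SF009 was 3204 CPM without its doubted replicate. Thus 4 lines were high and 3 were near 0, with no overlap between them. These low levels rest on few reads, 0 to 14 per library in SF279 and 9 to 92 in SF109, and 3 reads are worth 0.218 CPM in the deepest and 1.07 CPM in the shallowest library. The genotype difference had an adjusted p of 2.58e-39, and 1.50e-49 without the 5 doubted libraries (edgeR). Hybrids of SF092 with any second parent averaged 1170 to 2115 CPM and those of SF193 812 to 2460 CPM in control plants. All 4 hybrids of SF109 were low, at 1.39 CPM ± 0.97 in SF109_SF326, 2.91 ± 1.21 in SF109_SF317, 3.00 ± 0.41 in SF109_SF279 and 14.8 ± 23.51 in SF109_SF342. SF109_SF326 was thus near 0 although its parent line SF326 averaged 2055 CPM. Among the hybrids of SF009, those with SF317, SF326 and SF342 averaged 2326 to 2573 CPM. In SF009_SF279 the control libraries held 2515, 0.99 and 1.12 CPM, and the high one is the doubted replicate 1, so without it this hybrid was near 0 too. Under stress SF009_SF279 averaged 4.95 CPM ± 4.18, against 7995 ± 1847 in SF009.

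HanXRQChr14g0438431 (chromosome 14, 87642368 to 87642528, plus strand, 161 bp) was near 0 in SF193, at 1.03 CPM ± 0.48 in control and 1.74 ± 1.73 in stress plants, and low in SF279, at 85.7 ± 24.5 and 106 ± 17.6. It reached 2441 CPM ± 245 in control SF326 and 2195 ± 505 in control SF109. Hybrids of SF279 with SF009, SF092 and SF193 held 71.9 to 87.8 CPM in control plants, below all other hybrids, while SF109_SF279 averaged 1142 ± 149. Within SF009 its libraries disagreed: control plants held 58.8, 887 and 1022 CPM and stress plants 37.7, 94.8 and 4139 CPM, the 1022 and 37.7 coming from doubted libraries. HanXRQChr08g0211391 was likewise near 0 only in line SF193, at 4.12 CPM ± 0.82 in control plants, where the other 7 lines averaged 670 to 2972 CPM, and hybrids of SF193 averaged 827 to 2689 CPM. HanXRQChr03g0079861 was lowest in SF193 too, at 36.2 CPM ± 10.4 in control plants. It was highest where SF279 or SF342 was a parent: control hybrids of SF342 averaged 2732 to 3656 CPM and those of SF279 1885 to 2449 CPM, above every hybrid of SF317 and SF326. The genotype differences of these 3 genes had adjusted p-values of 8.37e-35 for HanXRQChr14g0438431, 1.23e-32 for HanXRQChr08g0211391 and 1.03e-36 for HanXRQChr03g0079861 (edgeR). Without the 5 doubted libraries they were 3.09e-39, 3.42e-33 and 5.60e-37 in the same order (edgeR).

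**Figure D3:**
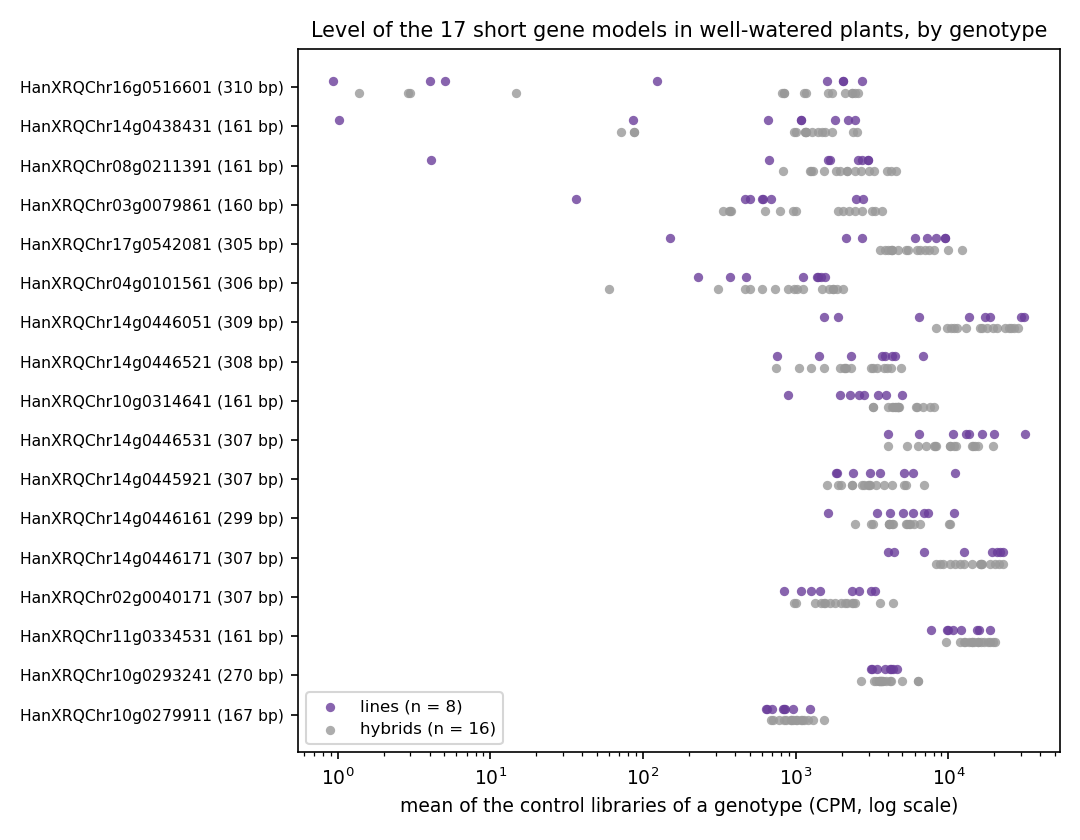
Mean CPM over the control libraries of a genotype (log scale) for the 17 genes with models under 400 bp, ordered by their range over genotypes, with lines in purple and hybrids in grey. HanXRQChr16g0516601, at the top, runs from 0.93 to 2729 CPM between genotypes, while HanXRQChr11g0334531 stays between 7652 and 20260 CPM.

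Chromosome 14 held 10 of the 91 genes and 27.6% of their counts. Of these, 6 short genes lay within 1.69 Mb (126621103 to 128311377), a stretch with 62 gene models of which 10 were under 400 bp and 7 reached 100 CPM. These 6 genes took 5.48% ± 1.23 of control counts and 6.64% ± 1.45 of stress counts (SD over libraries). Not all of them ranked the genotypes alike. HanXRQChr14g0446051 was low in control SF326 (1535 CPM ± 148) and SF109 (1895 ± 339) and high in SF317 (30010 ± 2821), whereas HanXRQChr14g0446531 was high in SF326 (31810 ± 10150) and SF109 (19890 ± 3715) and lower in SF317 (10650 ± 726). HanXRQChr14g0446171 was high in SF109 (22690 CPM ± 4683) and low in SF326 (4030 ± 476), so these 3 genes did not share an order. Over the 24 control genotype means of log2 CPM, which include hybrids that share parents, the 15 pairs among the 6 genes ran from a Pearson's r of -0.63 (HanXRQChr14g0446051 with HanXRQChr14g0446531) to 0.875. The highest was that of HanXRQChr14g0446531 with HanXRQChr14g0446521, which lie 1102 bp apart, and HanXRQChr14g0446161 with HanXRQChr14g0446521 followed at 0.62. The stretch was picked out after its values were seen.

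For HanXRQChr14g0446051 the doubted libraries decide some group means. Stress SF326 held 1503, 1396 and 39030 CPM and stress SF092_SF317 held 34970, 47720 and 1272 CPM, with the deviating value in replicate 3, the doubted library, in each. Control SF009 held 2551, 14870 and 1706 CPM, and the 14870 CPM came from the doubted replicate 2. In stress SF009, replicate 1 held 43080 CPM, against 2338 and 1615 CPM in the others, although that library was not among the 5. The same exchange of levels appears in HanXRQChr17g0542081, at 2450, 2160 and 12020 CPM in stress SF326 and at 9115, 11820 and 2234 CPM in stress SF092_SF317.

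The long genes carried most of the drought change. Of the 74, 57 had a stress to control ratio of CPM below 1 and 17 above 1, with a median log2 ratio of -0.69. A change of over 2-fold was seen downwards in 27 and upwards in 8. The mean log2 CPM was lower under stress in all 24 genotypes for 39 of them (37 without the 5 doubted libraries) and higher in all 24 for 9. Counts past 2-fold and in all 24 genotypes were not made over all tested genes, so they describe the 74 only. The 57 genes with a ratio below 1 went from 15.9% ± 1.90 to 7.54% ± 2.89 of the counts, and the 17 others from 1.94% ± 0.21 to 3.47% ± 0.59. These sets were split by the ratio of stress to control itself, so the direction of each share was fixed in advance and only its size is described. Because the rule used this contrast, the test is given as a count only: 76 of the 91 genes, 16 higher and 60 lower on the TMM scale, had an adjusted p under 0.05, beside 63.9% of all tested genes (31.4% higher, 32.6% lower) and 87.2% of nuclear genes at 100 to 1000 CPM (32.8% higher, 54.4% lower). With library totals alone 25 were higher and 58 lower, and without the 5 doubted libraries 16 were higher and 61 lower. The median TMM log2 change was -0.68 over the 91 genes, 0.02 over all tested genes and -0.23 over those at 100 to 1000 CPM.

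HanXRQChr11g0325331 (chromosome 11, 22100735 to 22102309, plus strand) had the lowest ratio. Its control libraries held 1961 to 8169 CPM, with a median of 4857, and its stress libraries 18.6 to 3119 CPM, with a median of 315. In 67 of 72 stress libraries it lay below every control library, and the change was a fall of 7.67-fold in the means. HanXRQChr10g0312801 (chromosome 10, 223560477 to 223563322, minus strand) held 4734 to 13590 CPM in control, with a median of 9510, and 133 to 7521 CPM under stress, with a median of 1371. Here 64 stress libraries lay below all controls, and the means differed 4.55-fold. HanXRQChr17g0547901 (chromosome 17, 53558485 to 53561631, minus strand) went from 3292 to 9111 CPM, median 5772, to 11.4 to 5793 CPM, median 773. Its stress libraries spread the widest of these 3, with 61 below all controls and others within the control range. The fall was largest in SF092_SF342 and smallest in SF342 for all 3, with log2 changes of -7.32 and -0.85 for HanXRQChr11g0325331, -5.32 and -0.78 for HanXRQChr10g0312801, and -7.84 and -0.36 for HanXRQChr17g0547901. The value of SF342 rests on its single control library. These 3 genes were picked for the lowest ratios in these same libraries, so the counts of libraries below all controls only describe them. Such counts were not made over all genes.

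HanXRQChr10g0293251 (chromosome 10, 98643391 to 98647188, minus strand) had the highest ratio, 8.00-fold in the means. Control libraries held 92.0 to 599 CPM, with a median of 236, and stress libraries 465 to 3288 CPM, with a median of 1939. In 69 of 72 stress libraries it lay above every control library. HanXRQChr13g0416771 (chromosome 13, 161338335 to 161339337, minus strand) held 45.5 to 2330 CPM in control, with a median of 333, and 534 to 5414 CPM under stress, with a median of 1741. Its groups overlapped more, with 30 stress libraries above all controls, since the control level itself ran from 80.9 CPM in SF193_SF317 to 1282 CPM in SF109. HanXRQChr05g0148381 (chromosome 5, 149989663 to 149992314, minus strand) went from 212 to 756 CPM, median 519, to 305 to 6824 CPM, median 1726, and 64 stress libraries lay above all controls. All 3 were higher under stress in 24 of 24 genotypes. They were picked for the highest ratios in these same libraries, so these counts of libraries and genotypes only describe them.

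**Figure D4:**
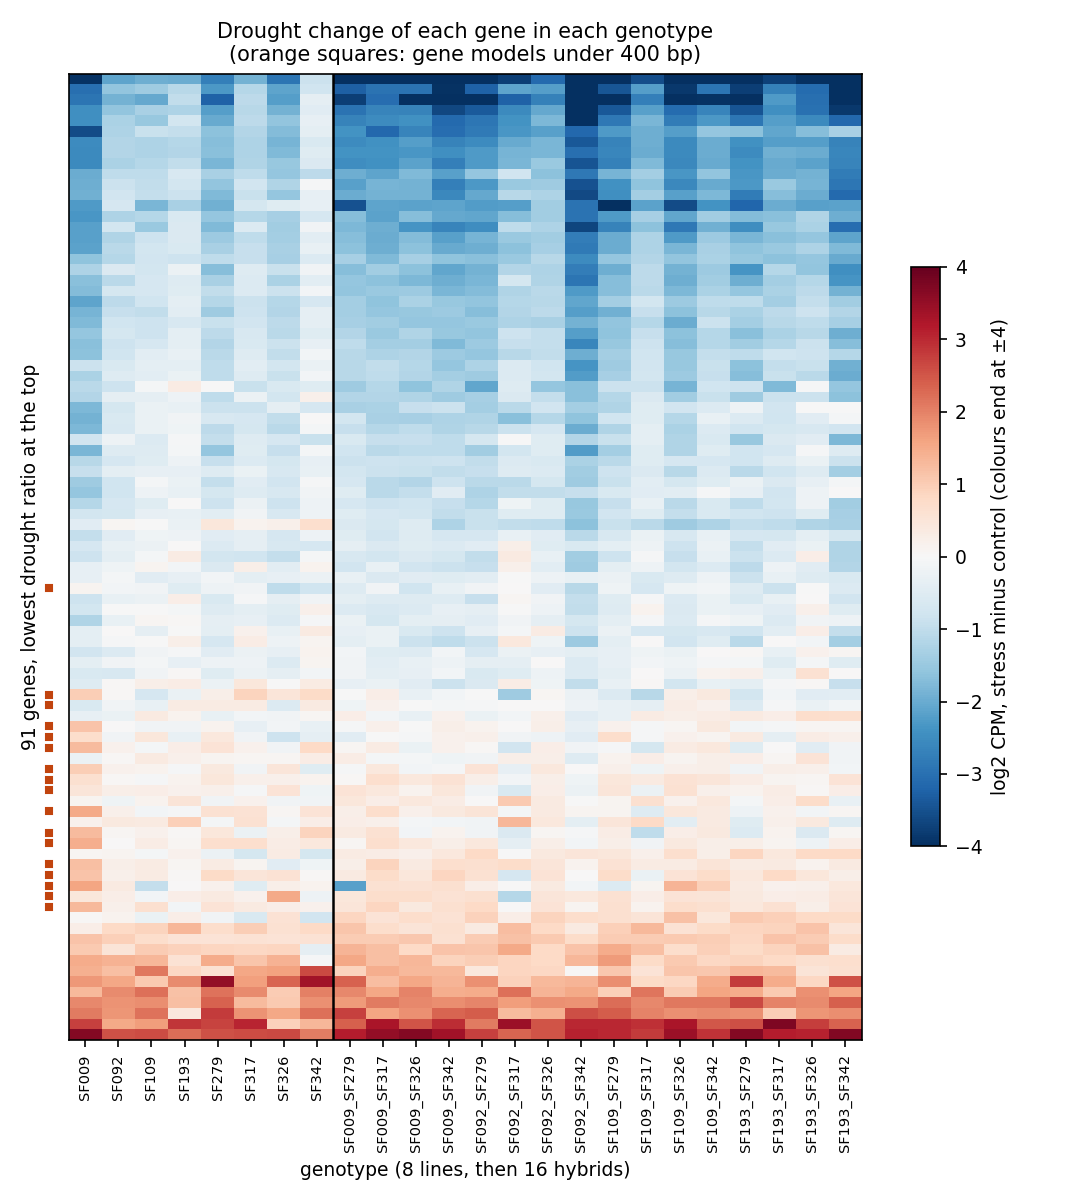
Log2 change of CPM under stress (colour, blue for lower and red for higher, ending at 4 in each direction) for the 91 genes, in rows from the lowest to the highest ratio, in 8 lines and 16 hybrids, in columns; orange squares mark the 17 short gene models. The rows of the short genes are pale, and the blue rows at the top are darker in most hybrids than in most lines, with SF342 the palest and SF092_SF342 among the darkest.

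The steadiest levels over all libraries were those of HanXRQChr08g0236621 and HanXRQChr05g0146621. HanXRQChr08g0236621 held 1478 to 2823 CPM in control, with a median of 2045, and 931 to 3531 CPM under stress, with a median of 2193. HanXRQChr05g0146621 held 944.5 to 2576 CPM in control, with a median of 1713, and 794 to 2149 CPM under stress, with a median of 1458. Both overlapped between control and stress over most of their range, and their genotype means in control plants lay within 1614 to 2580 CPM and 1255 to 2216 CPM. A small spread over libraries does not mean no drought change. Within genotypes, the mean of HanXRQChr05g0146621 was lower under stress in all but SF092_SF326 (1687 and 1705 CPM) and SF342 (1388 and 1482 CPM).

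Most of the abundant genes were lower in hybrids than in lines on average. Averaged over water supply, 64 of the 91 genes differed, 13 higher and 51 lower in hybrids (edgeR's quasi-likelihood test, adjusted p under 0.05). The SE and p-values of this test, and of the test of response below, come from the spread between libraries within groups. They do not measure the spread among the 16 hybrids or the 8 lines, and the hybrids share parents. The calls thus describe these genotypes and not hybrids and lines in general. Without the 5 doubted libraries 65 differed, 12 higher and 53 lower. The background was 41.3% of all tested genes (22.5% higher, 18.8% lower) and 62.8% of those at 100 to 1000 CPM (23.9% higher, 39% lower). The median log2 difference was -0.22 over the 91 genes, 0.06 over all tested genes and -0.08 over those at 100 to 1000 CPM. Among short genes 8 were higher and 3 lower in hybrids, and among long genes 5 were higher and 48 lower. In long genes the difference was seen in stressed plants: the median log2 difference of CPM was -0.0030 in control and -0.42 in stress plants, with 38 and 61 of the 74 lower in hybrids. In the short genes it was 0.28 in control and 0.135 in stress plants.

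HanXRQChr16g0516601 and HanXRQChr08g0211391 showed the largest differences towards hybrids, and these differences belong to the log scale. HanXRQChr16g0516601 held 0.61 to 2962 CPM in control hybrids, with a median of 1198, and 0.00 to 3607 CPM in control lines, with a median of 1331, so hybrids were not higher at the median. Its fitted log2 difference was 1.38 ± 0.22 (SE, adjusted p = 1.44e-07, edgeR), and 1.05 without the 5 doubted libraries (adjusted p = 7.70e-08). HanXRQChr08g0211391 held 646 to 6696 CPM in control hybrids, with a median of 2035, and 3.40 to 3966 CPM in control lines, with a median of 2176. Its log2 difference was 0.96 ± 0.10 (adjusted p = 4.73e-13, edgeR), with SF193 the single line near 0. The control means of the lines ran from 4.12 CPM in SF193 to 2972 CPM in SF279, a spread that this p-value does not measure. In the other direction stood HanXRQChr17g0547901 and HanXRQChr11g0325331, at -0.95 ± 0.24 (adjusted p = 0.000536) and -0.82 ± 0.19 (adjusted p = 0.000152). Under stress, HanXRQChr17g0547901 had medians of 461 CPM in hybrids and 2465 CPM in lines, while its control medians were 5728 and 5877 CPM.

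The drought response itself differed between hybrids and lines for 46 of the 91 genes, with 41 more negative and 5 more positive in hybrids (edgeR's quasi-likelihood test of the difference, adjusted p under 0.05). The background was 28.7% of all tested genes (11.2% more positive, 17.5% more negative) and 48% of those at 100 to 1000 CPM (17.6% and 30.4%). Of the 46, 37 had a stress to control ratio below 1, and all 37 fell further in hybrids, with a median log2 change of -1.66 in hybrids and -0.94 in lines. Of the 9 with a ratio above 1, 5 rose further in hybrids and 4 less. Only 3 of the 46 were short genes. The count was 46 without the 5 doubted libraries, but 32, 35 and 27 when replicate 1, 2 or 3 was left out, the last without SF342, whose only control library is a replicate 3.

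HanXRQChr11g0325331 had the largest difference. Under stress it held 18.6 to 2272 CPM in hybrids, with a median of 245, and 58.5 to 3119 CPM in lines, with a median of 1008, and the ranges overlapped. Its log2 change was -4.65 ± 1.06 in 16 hybrids and -2.30 ± 0.91 in 8 lines (SD over genotypes). The difference fitted on TMM-scaled counts was -2.16 ± 0.42 (SE, adjusted p = 3.57e-05, edgeR). This and the differences with an SE below are fitted values. They need not equal the difference of the mean log2 changes, which use CPM by library totals. HanXRQChr17g0547901 changed by -4.32 ± 1.55 in hybrids and -1.84 ± 0.99 in lines, and the fitted difference was -2.04 ± 0.53 (adjusted p = 0.00174, edgeR). HanXRQChr13g0408441 (chromosome 13, 124703438 to 124706750, plus strand) changed by 0.74 ± 0.24 in hybrids and by -0.09 ± 0.44 in lines. It was higher under stress in 16 of 16 hybrids and in 4 of 8 lines (3 without the 5 doubted libraries), so the lines had no common direction. Its stress libraries held 551 to 2311 CPM in hybrids, with a median of 1465, and 333 to 1847 CPM in lines, with a median of 755, from control medians of 872 and 863 CPM. The difference was 0.84 ± 0.16 (adjusted p = 3.64e-05, edgeR). HanXRQChr13g0416771 rose by 2.83 ± 0.45 in hybrids and 2.10 ± 0.83 in lines, and the difference of 0.83 ± 0.22 had an adjusted p of 0.00212, which became 0.0961 without replicate 1 and 0.0539 without replicate 3 (edgeR).

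**Figure D5:**
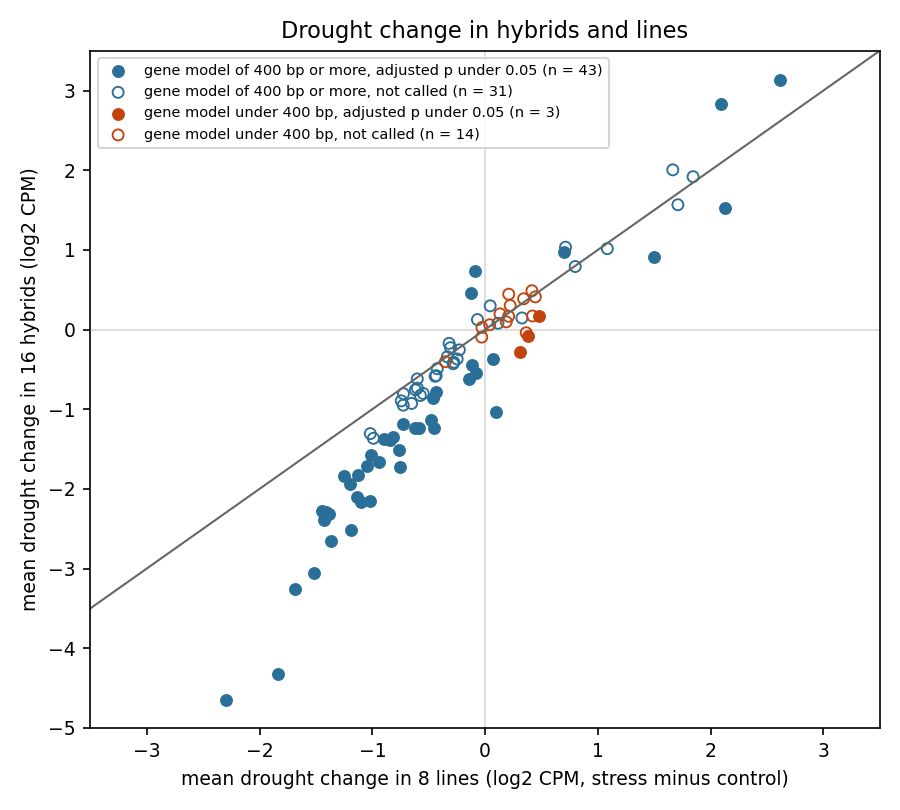
Mean log2 change of CPM under stress of each of the 91 genes in 8 lines (horizontal) and 16 hybrids (vertical), with the line of equal change; filled points are the 46 genes whose response differed between hybrids and lines, and orange points are the 17 short gene models. Most filled points on the left lie below the line, with HanXRQChr11g0325331 lowest at -4.65 in hybrids and -2.30 in lines.

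Between single genotypes, the drought response differed for 14 of the 91 genes (edgeR's quasi-likelihood test of genotype by water supply, adjusted p under 0.05), beside 11.9% of all tested genes and 20.8% of those at 100 to 1000 CPM. The members' share of 15.4% is near that background. Among these 14, SF342 had the smallest fall or the largest rise for 10, and its control group is a single library. With that line left out 12 genes passed, all of them among the 14. The count was 24 without the 5 doubted libraries, with 13 of the 14 among them, and 7, 2 and 1 when replicate 1, 2 or 3 was left out. Among these genes, the log2 change varied most in HanXRQChr11g0325331, with an SD over genotypes of 1.51 (adjusted p = 0.0106), HanXRQChr10g0312801, with 1.10 (adjusted p = 0.00537), and HanXRQChr11g0325361, with 1.02 (adjusted p = 0.0147). HanXRQChr11g0325361, the most abundant of the long genes, held 5259 to 16400 CPM in control libraries, with a median of 11010, and 262.5 to 8665 CPM under stress, with a median of 1902. The single short gene among the 14, HanXRQChr16g0516601, lost its call without the doubted libraries (adjusted p = 0.622).

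Some of the 91 genes lie next to each other, which was looked at after their values were seen. HanXRQChr11g0325331, HanXRQChr11g0325351 and HanXRQChr11g0325361 lie within 4 consecutive models on the plus strand of chromosome 11 (22100735 to 22148464), and all had low ratios, with log2 values of -2.94, -1.97 and -2.13. HanXRQChr11g0325351 and HanXRQChr11g0325361 are separated by only 50 bp. There were 6 other pairs of members within 5 models of each other. In 2 of them the genes stood on opposite sides of a ratio of 1, and in 4 on the same side. On chromosome 5, HanXRQChr05g0129501 had a log2 ratio of -0.89 and HanXRQChr05g0129531, 3 models further, 1.45. On chromosome 8, HanXRQChr08g0216431 stood at -1.50 and the next model, HanXRQChr08g0216441, at 0.21. On chromosome 10, the short gene HanXRQChr10g0293241 stood at 0.47 beside HanXRQChr10g0293251 at 3.00. The pairs of short genes on chromosome 14 were alike, with 0.14 in HanXRQChr14g0446161 beside 0.21 in HanXRQChr14g0446171 and 0.07 in HanXRQChr14g0446521 beside 0.37 in HanXRQChr14g0446531. Both genes of chromosome 17 that lie 3 models apart had ratios below 1, at -0.48 for HanXRQChr17g0559211 and -1.88 for HanXRQChr17g0559241.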

How the data were processed

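Leaf RNA was sequenced as oriented TruSeq paired-end libraries on an Illumina HiSeq 2000, per the labels' protocols. The authors deposited raw read counts per gene for 142 libraries, and the same table gives the position of each gene model. A second deposited table holds filtered CPM values (140 libraries, 30831 genes) and was used for an alternative choice of genes and libraries. Tools named in the submitters' processing notes are R 3.3.3 and edgeR 3.16.5. Not given in the sources used here are the aligner, the counter, the genome build and whether counting used strand. Of 58050 genes, the 17 noted as ribosomal RNA were left out of totals and tests.

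Members were chosen on CPM by library totals. Members and lists were chosen with earlier results of these data known. None of the identifiers matched the 83308 RefSeq genes of the table used for names (0 matches), so no gene lists were run and no sequence is shown. Counts were filtered with filterByExpr, which kept 36989 genes and 91 of 91 members, scaled by TMM, and tested with edgeR 4.0.16 (R 4.3.3; glmQLFit, robust, 1 mean per group, quasi-likelihood F-test, Benjamini-Hochberg adjustment over all genes tested, threshold 0.05). The dispersion trend was estimated on every 5th gene in order of level. The script was tested on simulated data. Log2 values of single libraries use a pseudocount of 0.5 CPM. Without molecular identifiers, counting error is a lower limit on the error of a library. The lone SF342 control library was assumed to vary as other groups do.

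Alternatives were RLE scaling, library totals, no filter, limma 3.58.1 with voom, DESeq2 1.42.0 (for differences with 1 degree of freedom), a replicate block, other thresholds, and leaving out libraries. By rule, the text names, among the 91, the 5 of highest level, the 3 highest and 3 lowest drought ratios and the 2 steadiest. Of genes past the genotype test, those with the 4 widest ranges over control genotypes are named. Of genes past the test of genotype by water supply, the 3 with the most variable drought change are named. For hybrids against lines and for their responses, the 2 largest differences each way are named, among genes past the test. Any gene under 1 CPM in a control genotype and those at each limit are named too. Others were chosen after their values were seen, also where the sentence that names them does not say so.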

Additional observations from a re-analysis of the deposited data

Results flagged for a closer look

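A difference between groups in the size of the drought change was found by a direct test in the following cases. By edgeR's quasi-likelihood tests, on the spread between libraries within groups, the change differed between hybrids and lines for 46 of the 91 genes. It differed between the 24 genotypes for 14. Among all tested genes 28.7% and 11.9% did so, and among nuclear genes at 100 to 1000 CPM 48% and 20.8%, which is near the members' 50.5% and above their 15.4%. Leaving out replicate 1, 2 or 3 gave 32, 35 and 27 genes for the first count and 7, 2 and 1 for the second. In HanXRQChr13g0408441 the fitted log2 change in hybrids minus that in lines was 0.84, and in HanXRQChr13g0416771 it was 0.83. It was -2.16 in HanXRQChr11g0325331 and -2.04 in HanXRQChr17g0547901. Groups held at most 3 libraries, so no outlier test within groups was run. SF009 stress replicate 1 and SF092_SF342 stress replicate 2 stood apart over many genes, and results without each are given in the report or with the alternatives.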

How the results depend on the processing

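The counts of the 91 genes that passed each test stayed within 1.5 times their value under RLE scaling, library totals, no filter on low counts, limma voom, DESeq2 (run only for differences with 1 degree of freedom), the authors' filtered genes and libraries, and without SF009 stress replicate 1, SF092_SF342 stress replicate 2 or line SF342, which were chosen for leaving out after seeing the data. The number of genes higher under stress went from 16 to 25 with library totals. The other exceptions came from leaving out libraries. Without 1 replicate at a time, 27 to 35 genes differed in response between hybrids and lines and 1 to 7 between genotypes, against 46 and 14. Over all genes these counts were 6277 to 7823 and 410 to 643, against 10621 and 4400. Leaving out replicate 3 also removed line SF342. Fewer libraries were then fitted, and other causes were not tested. Without the 5 doubted libraries, 24 genes differed between genotypes, and the cause was not tested. Counts without a replicate were 72 to 77 for drought, 53 to 65 for hybrids against lines and 59 to 69 for genotypes.

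CPM scaled by TMM do not add up to a fixed total, so their sums are not shares of counts. On that scale the 91 genes summed to 29.6% of the nominal total in control and 20.85% in stress libraries. By library totals they held 27.2% and 22.3% of the counts. A threshold of 500 CPM chose 179 genes with 33.9% of control and 27.65% of stress counts, and 2000 CPM chose 34 genes with 18.7% and 15.5%. Of 789 alternative values of single named genes, 742 kept their side of the threshold or, for drought, moved by less than the spread between genotypes. Another 47 lost their call and 0 reversed. A reversal of sign was looked for only in hybrids against lines and in their responses. Drought values were judged by the size of the move and not by sign, and the tests between genotypes carry no sign. Same-numbered control and stress libraries deviated together in part, with a correlation over 0.1 in 44 of 69 pairs. The median was 0.16, against -0.08 for different numbers, and 46 of 69 control libraries correlated best with their own number. Deviations were taken from the group mean, so a positive value for same numbers pulls that for different numbers down. The value for different numbers is thus no independent baseline, and no expectation for unpaired libraries was computed. Pairing within a genotype was not fitted, so its effect on the p-values was not tested. The replicate block is shared by all genotypes and is not such a pairing. With the replicate block, 76, 64, 45, 14 and 81 genes passed for drought, hybrids against lines, their response, genotype by water supply and genotype. Depth limits the levels near 0 in single genotypes, where a library held a few reads, while each gene averages 1000 CPM or more over all libraries.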
